A study of Mus musculus with 29 samples.

Results

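The comparison described here is what 24 h of IL-6 changed in mouse macrophages that received IL-4 at the same time. It sets 5 arrays of cells given IL-4 plus IL-6 against 5 arrays of cells given IL-4 alone, taken by their titles and paired by the replicate number that both groups carry, so 10 of the 29 arrays of the series are used. All cells were bone marrow-derived macrophages of C57BL/6 mice (wild type, 8 weeks old), grown for 7 days with CSF-1 in Teflon bags, and CSF-1 (10 ng/ml) stayed in the medium of every group. The IL-4 group then received IL-4 (10 ng/ml) for 24 h, and the other group IL-4 and IL-6 (10 ng/ml each). Another 10 arrays, 5 with IL-6 alone (10 ng/ml) and unstimulated replicates 1 to 5 (CSF-1 only), gave the difference that IL-6 made without IL-4. These share no array with the main comparison, and carry the same replicate numbers. The labels do not say whether replicates are separate mice or separate cultures of the same marrow, so p-values measure only the spread between these samples.

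IL-4 binds a receptor built around Il4ra and activates the transcription factor STAT6, which switches on the genes of alternative macrophage activation, among them arginase 1. IL-6 binds Il6ra, signals through the shared chain Il6st (gp130) and activates STAT3, which induces its own inhibitor, Socs3. The series' title places both cytokines in the setting of tumour-associated macrophages and the secretion of cathepsins, proteases of the lysosome.

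Values are log2 intensities, on which a difference of 1 is a 2-fold change, and each gene is represented by its brightest probe set. A gene is called when limma's paired test gives a Benjamini-Hochberg adjusted p under 0.05. The level that a gene had to exceed on at least 3 of the 29 arrays to be tested was log2 6.99, the filter level below. No detection calls were used, so a mean under that level may hold little signal over background, and no fold is given against it. In all comparisons the number of arrays limits the precision.

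The cells carried macrophage markers in both groups. The mean of Adgre1 (F4/80) was 13.01 with IL-4 and 13.20 with IL-4 plus IL-6, that of Csf1r 14.30 and 14.22, and that of Cd68 13.69 and 13.75. Some defining markers lay under the filter level in both groups: Cd3e and Cd3g (T cells), Cd79a (B cells), Col1a1 and Col3a1 (fibroblasts). So did Cdh5 (endothelium), Epx (eosinophils) and Klf1 (red cells). Other members of their lists did not. In each group, means lay above it for 3 of 18 T and NK cell, 1 of 13 endothelial and 4 of 15 erythroid and megakaryocyte markers. With IL-4 and with both cytokines, the counts were 0 and 1 of 19 for fibroblasts and stroma. For mast cells, basophils and eosinophils they were 2 and 1 of 20. The neutrophil genes S100a8 and S100a9 also lay above it: their means were 11.05 and 11.02 with IL-4, and 10.74 and 10.68 with both cytokines. The summed linear intensity of the 15 neutrophil markers ran from 6710 to 8400 on the IL-4 arrays and from 6730 to 8260 on the others. That sum mixes both directions. Of the 10 neutrophil markers tested, 1 was called higher (Csf3r) and 7 lower, among them S100a8 and S100a9. The shares over all genes tested were 32.8% higher and 34.9% lower. Of the 14 markers of B cells and plasma cells, 7 had a mean above the filter level with IL-4 and 6 with both cytokines, among them Ighm (11.68 and 12.06), Blnk (12.85 and 12.05) and Cd24a (9.63 and 8.68). Their summed intensity ran from 11400 to 14300 with IL-4 and from 8050 to 13300 with both, so the groups overlapped. The sums did not overlap for T and NK cells (1760 to 1990 with IL-4, 1350 to 1500 with both). Nor did they for mast cells, basophils and eosinophils (935 to 1030 and 757 to 843) or erythroid cells and megakaryocytes (7600 to 7820 and 9010 to 10200). Those of fibroblasts and stroma and of endothelial cells overlapped. The part of other cells in the results was not tested. Arrays correlated at 0.9950 to 0.9978 within a group and at 0.9831 to 0.9873 between the groups. A sign of RNA quality moved with the groups, and its part in the results was not tested: the log2 ratio of the 3′ to the 5′ probe set of Actb was 0.322 ± 0.017 (SD, n = 5) with IL-4 and 0.363 ± 0.019 (n = 5) with IL-4 plus IL-6, with no overlap. In the comparison without IL-4 it moved the other way, from 0.318 ± 0.0089 (n = 5) on unstimulated arrays to 0.248 ± 0.019 (n = 5) with IL-6, again with no overlap. The interactions below thus set groups against each other that differ in this ratio, and its part in them was not tested. The same ratio of Gapdh rose in both comparisons, with overlapping ranges. Its means were -0.0144 with IL-4 and 0.0229 with both cytokines, and -0.0485 unstimulated and -0.0294 with IL-6.

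IL-6 added to IL-4 changed most of the genes that passed the filter by a little and a few by a great deal. Of 7153 genes tested, 4842 were called (67.7%), 2343 higher (32.8%) and 2499 lower (34.9%), while the median size of the difference was 0.177. At least 2-fold differences were far fewer, 186 higher (2.6%) and 197 lower (2.75%), and all 383 (5.35%) had the same sign in all 5 pairs. They were chosen by the paired test and the mean of those same pairs, so this agreement is largely built in. The values of the groups did not overlap for 47.6% of the genes tested. At 4-fold or more the increases outnumbered the decreases, 54 against 18. A group mean lay under the filter level for 90 of the 383, and both did for 11. The first principal component of the 10 arrays held 83.6% of the variance and parted the 2 groups, and the second (6.74%) ordered the replicate numbers alike in both. Numbers of cells and RNA per cell cannot be told apart in bulk RNA.

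The largest increases were in a gap junction gene, monocyte-attracting chemokines, C-type lectins and the inhibitor Socs3. The largest increases and decreases were taken only among called genes whose groups did not overlap, so their lack of overlap was set by the choice. Gja1, which encodes the gap junction protein connexin 43, lay at 3.95, 4.15, 4.65, 4.35 and 4.54 on the IL-4 arrays of replicates 1 to 5 and at 12.30, 12.43, 12.45, 12.35 and 12.47 with IL-6 added. It was low on every IL-4 array and high on every other, and rose by 8.07 (SE 0.078, adjusted p = 5.74e-11). Its 6 probe sets differed in the size of that increase, from 1.37 to 8.07, and the set that stands for it is of a type (_x_at) that can bind other transcripts. Ccl8, a chemokine for monocytes and other leukocytes, lay at 6.91, 6.36, 6.48, 6.32 and 6.57 with IL-4 and at 14.30, 14.41, 14.27, 14.23 and 14.14 with both cytokines. It was near or under the filter level on all IL-4 arrays, and rose by 7.74 (SE 0.087, adjusted p = 1.13e-10). Ccl12, another monocyte chemokine, lay at 4.93, 4.34, 5.56, 4.53 and 4.79 with IL-4 and at 11.22, 11.41, 11.65, 11.30 and 11.30 with IL-6 added. Its groups lay far apart, with an increase of 6.55 (SE 0.12, adjusted p = 2.12e-09).

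Cd209e, a lectin of the DC-SIGN family, lay at 4.47, 4.42, 4.46, 4.41 and 4.62 with IL-4 and at 10.94, 11.06, 10.98, 10.76 and 11.03 with both cytokines. Its 5 values within each group lay close together, and it rose by 6.48 (SE 0.045, adjusted p = 1.03e-11). Ednrb, a receptor for endothelins, varied more on the IL-4 arrays, at 4.09, 4.50, 4.60, 5.38 and 5.42, and lay at 10.24, 10.28, 10.33, 10.10 and 10.30 with IL-6 added. The spread at the low end did not bring the groups near each other, and the increase was 5.45 (SE 0.19, adjusted p = 5.32e-08). Socs3, which binds gp130 and shuts down STAT3 signalling, lay at 6.11, 6.11, 5.97, 6.01 and 5.69 with IL-4 and at 11.04, 11.25, 11.17, 11.17 and 10.95 with both. It rose by 5.14 (SE 0.048, adjusted p = 5.74e-11) and was high on all 5 IL-4 plus IL-6 arrays and low on all 5 IL-4 arrays, as their labels say.

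Pdgfc, a platelet-derived growth factor chain, lay at 5.68, 6.02, 5.43, 5.47 and 5.40 with IL-4 and at 10.52, 10.71, 10.52, 10.34 and 10.22 with both, an increase of 4.86 (SE 0.053, adjusted p = 1.1e-10). Ch25h, the enzyme that makes 25-hydroxycholesterol, lay at 5.67, 5.59, 5.51, 5.62 and 5.94 with IL-4 and at 10.55, 9.99, 10.56, 10.24 and 10.62 with both, an increase of 4.73 (SE 0.083, adjusted p = 1.4e-09). Both genes were under the filter level on every IL-4 array. The other 8 of the 16 largest increases ran from 3.74 to 4.57: Chil4 (Ym2, a chitinase-like protein of alternative activation), Pgap6, Cd209a, Cystm1, Fgl2 (a fibrinogen-like protein), Ccl24 (eotaxin-2), Il4ra and Cd163 (the scavenger receptor for haemoglobin). Folds can be given for 4 of these, since both group means lay above the filter level: 15.3-fold for Cystm1, 15.2-fold for Fgl2, 14.3-fold for Ccl24 and 13.5-fold for Il4ra. Chil4 and Chil3, and the Cd209 genes, have close relatives that a probe set may not tell apart.

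**Figure D1:**
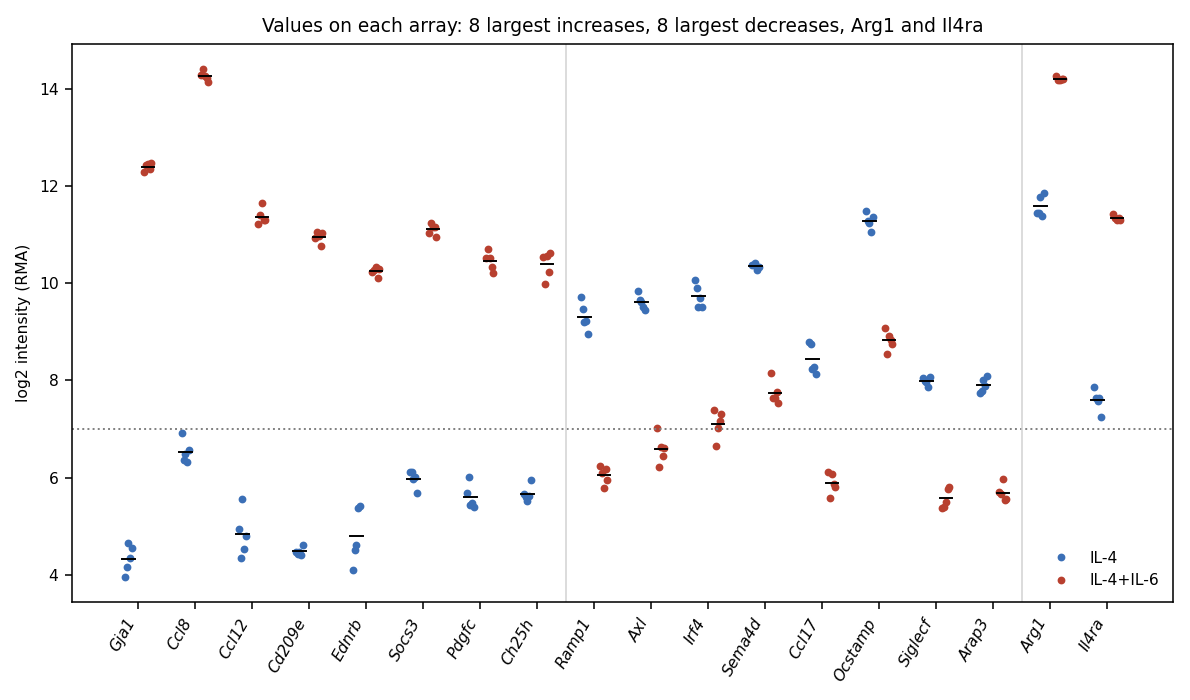
Log2 intensity on each of the 5 IL-4 arrays (blue) and 5 IL-4 plus IL-6 arrays (red) for the 8 largest increases, the 8 largest decreases, Arg1 and Il4ra. Points are arrays, short lines are group means and the dotted line is the filter level of 6.99. The groups do not overlap for any gene drawn, which was a condition for choosing the largest increases and decreases. For most of the increases the IL-4 values lie under the dotted line.

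Upstream sequence is shown for the 3 of the 16 largest increases whose 250 bases before the start hold TTCNNNGAA, the palindrome that STAT factors bind. The sequences are from RefSeq, build GRCm38.p6, read 5′ to 3′ on the gene's strand, with the match in capitals: Socs3 at chr11:117969367-117969616 (minus strand), Chil4 at chr3:106219480-106219729 (minus strand) and Fgl2 at chr5:21372423-21372672 (plus strand).
Socs3: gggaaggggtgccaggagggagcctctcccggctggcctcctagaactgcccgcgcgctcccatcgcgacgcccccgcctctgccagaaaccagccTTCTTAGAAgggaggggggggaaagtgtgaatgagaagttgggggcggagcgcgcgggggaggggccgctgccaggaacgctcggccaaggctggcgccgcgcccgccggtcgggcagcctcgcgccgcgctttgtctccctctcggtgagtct
Chil4: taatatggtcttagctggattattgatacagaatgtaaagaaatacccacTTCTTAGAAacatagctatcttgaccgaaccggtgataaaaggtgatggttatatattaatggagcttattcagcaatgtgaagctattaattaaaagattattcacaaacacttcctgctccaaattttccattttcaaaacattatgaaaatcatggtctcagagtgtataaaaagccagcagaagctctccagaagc
Fgl2: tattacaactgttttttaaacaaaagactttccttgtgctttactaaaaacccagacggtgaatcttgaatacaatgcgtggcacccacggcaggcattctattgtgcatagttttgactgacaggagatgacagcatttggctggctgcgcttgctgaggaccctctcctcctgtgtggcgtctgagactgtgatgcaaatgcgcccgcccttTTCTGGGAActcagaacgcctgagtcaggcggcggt
The match is TTCTTAGAA in Socs3 and Chil4, first base at -154 and -200 from the start, and TTCTGGGAA in Fgl2, first base at -36. In windows of 300 bases (250 before to 50 after the start), searched on both strands, TTCNNNGAA was in 3 of the 14 promoters matched for the 16 largest increases (21.4%). Among the 16 largest decreases, of which 12 were matched, it was in 2 of 19 promoters (10.5%). It was in 6.97% of the 201 promoters matched for 151 of the 186 genes at least 2-fold higher. For genes at least 2-fold lower it was in 6.37% of 204 promoters, matched for 157 of 197 genes. The share was 6.56% for the promoters matched for 5916 of the 7153 genes tested and 8.3% for all 32851. A gene can have several promoters. The match describes these letters alone, and the share among the genes at least 2-fold higher lay near that of the genes tested. The same palindrome with 4 free bases, the spacing that STAT6 prefers, was in 7.96% of the promoters of the genes at least 2-fold higher. It was in 5.53% of those of the genes tested and in 6.95% of all promoters.

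The largest decreases were in the receptor-associated protein Ramp1, the receptor tyrosine kinase Axl and, next to them, in genes known to be induced by IL-4 in macrophages, Irf4, Ccl17 and Ocstamp. Ramp1, which forms the CGRP receptor with its partner chain, lay at 9.72, 9.47, 9.20, 9.22 and 8.95 with IL-4 and at 6.23, 6.09, 5.78, 6.18 and 5.94 with both cytokines. It was under the filter level on every array with IL-6 and fell by 3.27 on the log2 scale (SE 0.075, adjusted p = 4.6e-09). Axl, a receptor for Gas6 on dying cells, lay at 9.84, 9.65, 9.61, 9.51 and 9.45 with IL-4 and at 7.03, 6.21, 6.63, 6.45 and 6.61 with both. The groups lay apart, and Axl fell by 3.03 on the log2 scale (SE 0.084, adjusted p = 1.21e-08). Irf4, a transcription factor that IL-4 induces in macrophages, lay at 10.06, 9.91, 9.52, 9.69 and 9.51 with IL-4 and at 7.40, 6.65, 7.01, 7.16 and 7.30 with both. It was 6.22-fold lower with IL-6 added (log2 difference -2.64, SE 0.12, adjusted p = 2.38e-07).

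Sema4d, a semaphorin, lay at 10.37, 10.37, 10.42, 10.27 and 10.33 with IL-4 and at 8.16, 7.63, 7.63, 7.77 and 7.54 with both, 6.10-fold lower (log2 difference -2.61, SE 0.082, adjusted p = 2.66e-08). Ccl17, an IL-4-induced chemokine for Ccr4-bearing T cells, lay at 8.80, 8.75, 8.23, 8.28 and 8.14 with IL-4 and at 6.12, 5.58, 6.08, 5.87 and 5.80 with both. Ccl17 thus fell by 2.55 on the log2 scale (SE 0.13, adjusted p = 3.32e-07) to under the filter level. Ocstamp, which takes part in the fusion of macrophages and osteoclasts, lay at 11.50, 11.28, 11.25, 11.05 and 11.37 with IL-4 and at 9.08, 8.54, 8.92, 8.83 and 8.75 with both, 5.53-fold lower (log2 difference -2.47, SE 0.071, adjusted p = 1.56e-08). It stayed well above the filter level in both groups.

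Siglecf, a sialic acid-binding lectin of eosinophils and some macrophages, lay at 8.05, 7.99, 7.97, 7.86 and 8.07 with IL-4 and at 5.37, 5.40, 5.50, 5.76 and 5.81 with both. It fell by 2.42 on the log2 scale (SE 0.080, adjusted p = 3.5e-08), beside a level of the eosinophil gene Epx under the filter level in both groups. Arap3, a GTPase-activating protein, lay at 7.75, 7.79, 8.00, 7.88 and 8.09 with IL-4 and at 5.71, 5.66, 5.96, 5.53 and 5.56 with both, and fell by 2.22 on the log2 scale (SE 0.073, adjusted p = 3.43e-08). The other 8 were Slamf9 (4.53-fold lower), Clec4b1 (4.52-fold), Lsp1 (4.51-fold), Dna2 (4.46-fold), the phosphatase gene Ptpn22 (4.44-fold), Enc1 (4.27-fold), Cav1 and Chn2. Cav1, which encodes caveolin-1, and Chn2 fell by 2.13 and 2.10 on the log2 scale to under the filter level. Second probe sets of Axl, Irf4, Sema4d and Enc1 were dim, with smaller differences of -0.13, -0.46, -0.64 and -0.21.

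How far these differences depended on IL-4 was tested with the interaction, the difference IL-6 made with IL-4 minus the one it made without. Without IL-4, IL-6 changed 3289 genes (46%), 1447 upward (20.2%) and 1842 downward (25.8%), and the spread of its differences over all genes (SD 0.306) was smaller than with IL-4 (SD 0.538). Both differences correlated across the 7153 genes at Pearson's r = 0.661 and Spearman's rho = 0.599. These are across genes, which are not independent replicates. Of the 2343 genes higher with IL-4 present, 1018 (43.4%, and 70.4% of those higher without IL-4) were also higher without it, and 170 were lower. Of the 2499 lower, 1300 (52%, and 70.6% of those lower without IL-4) were also lower without it, and 182 were higher. The interaction was called for 3499 genes (48.9%), above 0 for 1762 (24.6%) and below 0 for 1737 (24.3%).

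For Socs3 and Stat3 the interaction was small and was not called. IL-6 raised Socs3 by 5.11 without IL-4 and by 5.14 with it (interaction 0.03, SE 0.10, adjusted p = 0.834), and Stat3 by 0.98 and 1.03 (interaction 0.05, SE 0.063, adjusted p = 0.568). At the other end stood Cd209e, which IL-6 raised by 0.49 without IL-4 and by 6.48 with it (interaction 5.99, adjusted p = 3.19e-20), though both of its means without IL-4 (4.08 and 4.57) lay under the filter level. Ccl8 (interaction 4.91), Chil4 (4.57), Cd209a (4.10), Ccl24 (3.97) and Cd163 (3.90) also had interactions above 0. For Chil4, Ccl24 and Cd163 the difference without IL-4 was 0.00, -0.14 and -0.16 and was not called, but the means of Chil4 (4.34 and 4.34), Ccl24 (6.43 and 6.29) and Cd163 (4.84 and 4.68) there all lay under the filter level. Those of Cd209a (5.68 and 6.03) did too. Signal over background was not tested, so these genes show that IL-6 did not bring them above the filter level without IL-4, and no more. Gja1, Ednrb and Fgl2 rose in both settings, by 5.36, 3.60 and 2.52 without IL-4, with interactions of 2.72, 1.85 and 1.4.

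Among the decreases, Slamf9, a receptor of the SLAM family, went the opposite way: IL-6 raised it by 0.87 without IL-4 (adjusted p = 1.24e-05) whereas with IL-4 it fell by 2.18 on the log2 scale (interaction -3.05, adjusted p = 1.65e-13). Clec4b1 (interaction -2.25) was not called without IL-4, at means of 9.93 unstimulated and 10.01 with IL-6. Ccl17 (interaction -2.60) lay at 4.97 and 5.02 without IL-4, under the filter level, where a fall could not have been seen. Ramp1 and Axl fell in both settings, with log2 differences of -1.25 and -1.19 without IL-4. Cav1 was closest to equal, with differences of -1.66 without IL-4 and -2.13 with it (interaction -0.47, adjusted p = 0.00683).

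**Figure D2:**
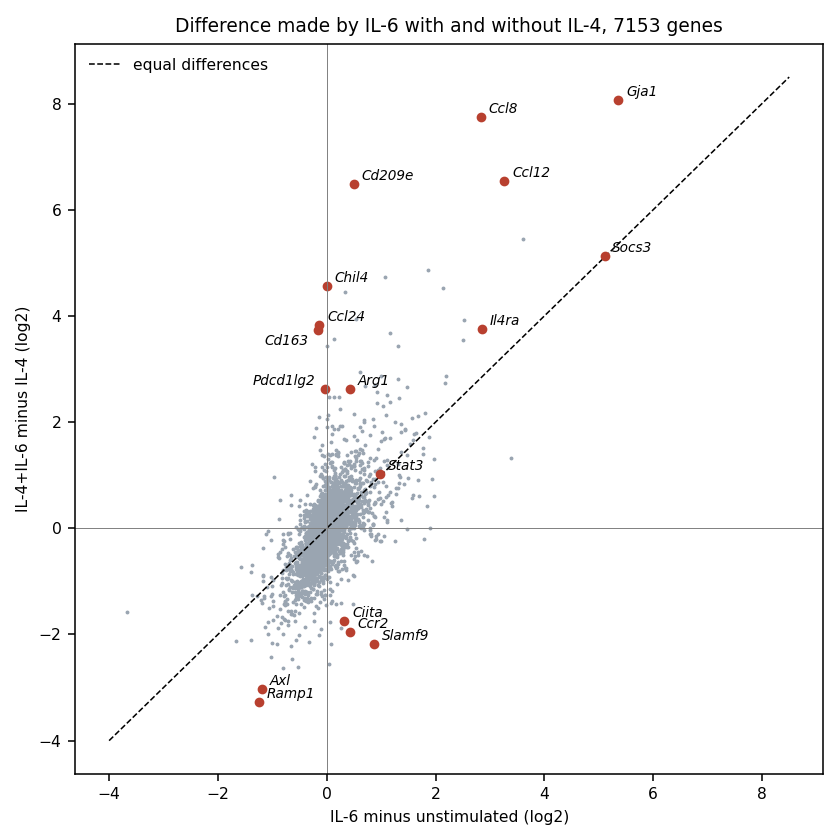
Each point is 1 of 7153 genes, with the log2 difference IL-6 minus unstimulated on the horizontal axis and IL-4 plus IL-6 minus IL-4 on the vertical axis (means of 5 pairs each). Socs3 and Stat3 lie near the dashed line of equal differences. Cd209e, Chil4, Ccl24 and Cd163 lie between -0.16 and 0.49 on the horizontal axis and between 3.74 and 6.48 on the vertical one, and Slamf9 lies right of 0 and below it.

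The signalling chain of both cytokines moved with IL-6. Il4ra, the receptor chain for IL-4, lay at 7.86, 7.63, 7.58, 7.63 and 7.24 with IL-4 and at 11.43, 11.34, 11.31, 11.34 and 11.31 with both, a rise of 3.76 (SE 0.064, adjusted p = 1.4e-09). Its other probe sets rose by 3.04 and 1.22. Il6st lay at 10.89, 10.92, 10.83, 10.84 and 10.77 with IL-4 and at 11.92, 11.80, 11.83, 11.78 and 11.85 with both, 1.98-fold higher (SE 0.037 on the log2 scale, adjusted p = 7.3e-08). IL-6 raised Il6st by 0.13 without IL-4 (interaction 0.86, adjusted p = 4.8e-10). Il6ra, the IL-6-binding chain, went down by 0.62 on the log2 scale (1.53-fold, adjusted p = 4.35e-06), from a mean of 9.43 to 8.81.

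Stat3 lay at 9.55, 9.53, 9.64, 9.74 and 9.42 with IL-4 and at 10.64, 10.60, 10.55, 10.62 and 10.62 with both, and was 2.04-fold higher (SE 0.050 on the log2 scale, adjusted p = 2.93e-07). Stat6 fell slightly, by 0.21 on the log2 scale (adjusted p = 0.00194). Of the 9 JAK and STAT genes tested, 6 rose and 2 fell, with Jak2 2.61-fold higher. Of 24 tested receptor chains for these and related cytokines, 10 rose and 11 fell. The shares over all genes tested were 32.8% higher and 34.9% lower. The IL-1 receptor Il1r1 rose by 2.48 and the G-CSF receptor Csf3r by 1.43, while Tnfrsf1b (TNF receptor 2) and Tgfbr1 fell by 1.66 and 1.38 on the log2 scale. Of 15 SOCS genes and other JAK-STAT inhibitors, 7 rose and 4 fell, and after Socs3 the largest rises were in the phosphatase gene Ptpn2 (1.73-fold) and Socs1 (1.64-fold).

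Of 29 tested genes listed as responsive to STAT3, 22 rose and 4 fell, beside 32.8% and 34.9% of all genes tested. The list's median difference was 0.62, against -0.008 over all genes. Timp1, an inhibitor of metalloproteases, rose 11.7-fold and the transcription factor Cebpd 6.41-fold. Bcl3, also listed with the NF-kappaB subunits and inhibitors, rose 1.99-fold. The list's median was lower with IL-4 present than without it in all 5 pairs of replicate numbers, at 0.60 to 0.76 against 0.71 to 0.85; this difference was not tested.

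Of 43 tested genes listed for alternative activation, the state that IL-4 drives through STAT6, 23 rose and 18 fell, beside 32.8% and 34.9% of all genes tested. Not all of them were high with IL-4 alone. Cd209e, Ch25h and Cd209a lay under the filter level unstimulated (4.08, 5.25 and 5.68) and with IL-4 (4.48, 5.66 and 5.66). Arg1 (3.83 and 11.58) and Ccl24 (6.43 and 10.02) lay higher with IL-4. The response of the list to IL-4 alone was not tested. At least 2-fold differences were 15 upward and 7 downward, beside 2.6% and 2.75% of all genes, and the median was 0.17. Arg1, arginase 1, lay at 11.45, 11.45, 11.77, 11.39 and 11.86 with IL-4 and at 14.27, 14.18, 14.18, 14.21 and 14.20 with both cytokines. It was higher on every array with IL-6, 6.17-fold in the mean (log2 difference 2.63, SE 0.077, adjusted p = 1.71e-08), and its values with both cytokines lay near the top of the scale, where RMA intensities run up to 15.13. On unstimulated and IL-6 arrays its means were 3.83 and 4.25, under the filter level. Beside Arg1, Chil4 and Ccl24, IL-6 raised Pdcd1lg2 (PD-L2, a ligand of the inhibitory receptor PD-1) 6.15-fold, the mannose receptor Mrc1 3.16-fold, E-cadherin Cdh1 3.78-fold and Hbegf, an EGF-family growth factor, 2.23-fold. Mrc1 rose by 1.66 with IL-4 and by 1.58 without it (interaction 0.08, SE 0.065, adjusted p = 0.34), but its mean of 14.55 with both cytokines also lay near the top of the scale, where differences can be compressed.

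The genes that fell included Irf4, Ccl17 and Ocstamp, the chemokine Ccl22 (4.0-fold lower), the nuclear receptor Pparg (1.87-fold lower) and the metalloprotease Mmp12 (1.65-fold lower). Ccl22 and Ccl17 share the receptor Ccr4. Ppargc1b, the PPAR-gamma coactivator that supports the oxidative metabolism of IL-4-treated macrophages, was 2.39-fold lower with IL-6, with no called change without IL-4 (log2 difference -0.04).

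**Figure D3:**
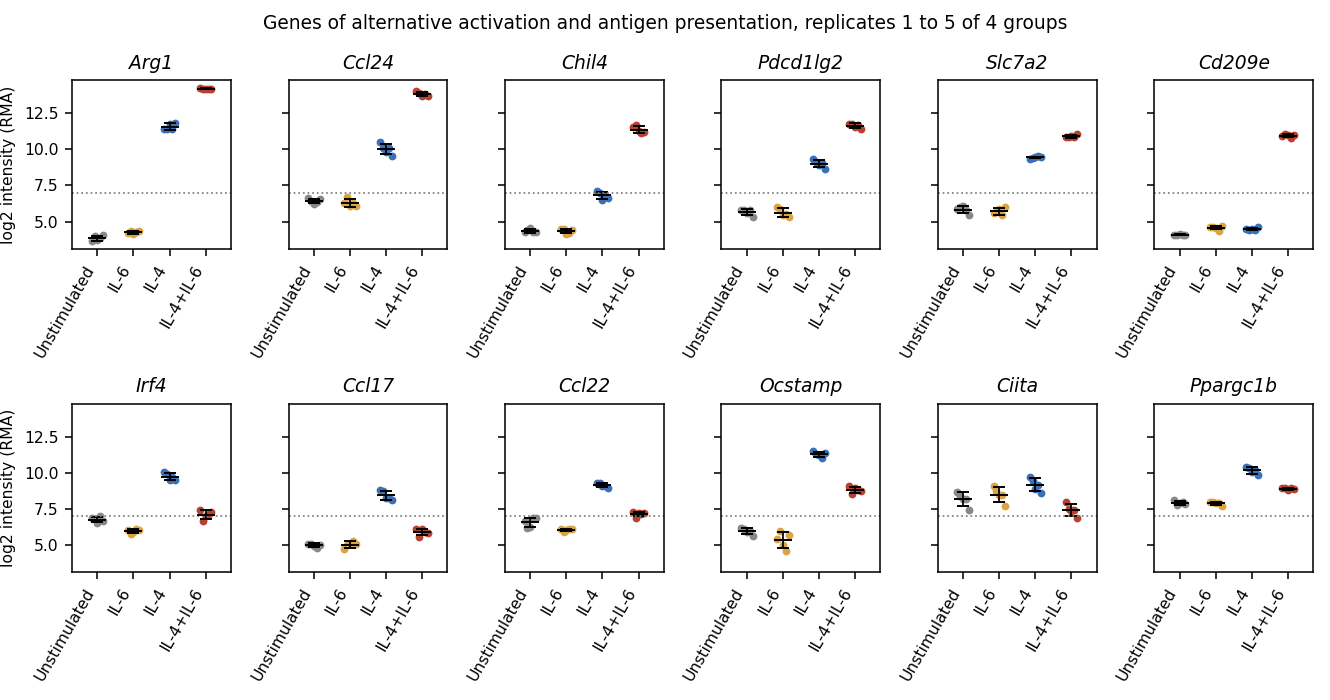
Log2 intensity of 12 genes on replicates 1 to 5 of the unstimulated, IL-6, IL-4 and IL-4 plus IL-6 groups. Points are arrays, and bars are mean and SD (n = 5), with the filter level of 6.99 dotted. In the upper row the IL-4 plus IL-6 values are the highest of the 4 groups, and in the lower row the IL-4 values lie above the IL-4 plus IL-6 values.

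Arginine metabolism moved beyond Arg1. Of 15 tested genes of arginine and polyamine metabolism, 8 rose and 4 fell, beside 32.8% and 34.9% of all genes tested. The arginine importer Slc7a2 rose 2.77-fold, ornithine decarboxylase Odc1 1.73-fold and ornithine aminotransferase Oat 1.35-fold, while the creatine-synthesis enzyme Gatm went down 1.33-fold. Slc7a2 and Odc1 differed by -0.12 and -0.04 without IL-4, neither called, and their interactions were 1.59 and 0.83. Odc1 lay above the filter level there, and Slc7a2 under it (5.82 and 5.71). Arg2, the mitochondrial arginase, rose by 2.17 from under the filter level.

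Chemokines and their receptors changed in both directions. Of 20 tested chemokines, 11 rose and 8 fell, and of 11 receptors, 5 rose and 4 fell. The shares over all genes tested were 32.8% higher and 34.9% lower. The chemokine median of 0.24 ran from -0.02 to 0.62 over the alternatives. Ccl7 rose 10.8-fold beside Ccl8, Ccl12 and Ccl24, and Pf4 2.30-fold, while Ccl5 was 2.0-fold lower. Among the receptors, Ccr1 rose 4.34-fold, and Ccr2, the monocyte receptor for Ccl12 and Ccl7, was 3.87-fold lower. Without IL-4, IL-6 raised Ccr2 slightly (0.42), and the interaction was -2.38 (adjusted p = 6.07e-13).

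Receptors for uptake changed in both directions, and the called Fc receptors upward, beside 32.8% of all genes tested called higher and 34.9% lower. All 5 called Fc receptors of 7 tested were higher: Fcgrt (the neonatal Fc receptor) 4.01-fold, Fcgr1 3.58-fold, Fcgr4 3.00-fold, Fcgr2b 2.59-fold and Fcgr3 1.71-fold. Fcgr4 and Fcgr2b rose by 1.53 and 1.48 without IL-4, and their interactions of 0.06 (SE 0.064) and -0.11 (SE 0.11) were not called. Of 13 scavenger receptors, 7 rose and 5 fell, led by Cd163 and by Cd5l (AIM), which was 6.71-fold higher, with Cd14, the co-receptor for endotoxin, 1.74-fold lower. Of 16 receptors and bridging ligands for dying cells, 5 rose and 9 fell. Gas6, the ligand of Axl and Mertk, rose 7.32-fold and Mertk 1.88-fold while Axl fell, and Cd300a was 2.82-fold lower. Of 15 C-type lectins, 6 rose, among them Cd209e, Cd209a, Cd209d and Mrc1, and 8 fell, among them Clec4b1 and Clec4d (2.53-fold).

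The 7 tested genes of MHC class II presentation all fell, beside 34.9% of all genes tested, with a median of -0.87. Ciita, the factor that switches these genes on, was 3.37-fold lower, H2-DMa 2.23-fold, H2-Ab1 1.95-fold, H2-Eb1 1.83-fold, the invariant chain Cd74 1.73-fold and H2-Aa 1.54-fold. The remaining member, H2-Ea, is a gene that C57BL/6 mice are known not to express, so its probe set cannot be read as a measure of it. In the 5 pairs the list's median ran from -0.95 to -0.81, and in the pairs without IL-4 from -0.13 to 0.06. The interaction of Ciita was -2.07 (adjusted p = 1.56e-12), and 1 gene of the list was called higher and 0 lower by IL-6 without IL-4. Dendritic cell markers moved in both directions: 4 of 10 tested rose and 6 fell, beside 32.8% and 34.9% of all genes. Cd209a rose by 4.44 and Bst2 by 1.12, while Itgax was 2.21-fold and Batf3 1.63-fold lower. The summed intensity of the list's 16 genes was 24800 to 27600 with IL-4 and 21100 to 22300 with both. The part of these markers in the class II result was not tested. Of 8 tested markers of B cells, which also carry class II, Cd24a was 1.93-fold lower, Blnk 1.73-fold lower and Ms4a1 fell by 0.47 on the log2 scale, while Ighm, Iglv1 and Jchain were called higher. The calls of Ms4a1, Ighm, Iglv1 and Jchain were lost without the replicate block (adjusted p = 0.297, 0.309, 0.427 and 0.66), and the part of B cells was not tested. Of 24 macrophage markers 8 rose and 13 fell, beside 32.8% and 34.9% of all genes, with Mpeg1 2.38-fold lower. Of 15 tested genes of MHC class I presentation 3 rose and 4 fell, so 46.7% were called, beside 67.7% of all genes. The peptide-trimming protease Erap1 was 1.66-fold higher.

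Genes of mitosis and DNA replication went down together, beside 34.9% of all genes tested called lower. All 43 tested genes of mitosis fell, 20 of them at least 2-fold, with a median of -0.97, and 35 of 36 genes of DNA replication fell, with a median of -0.63. The mitotic cyclins Ccnb2 and Ccna2 were 2.33-fold and 2.32-fold lower and the kinetochore motor Cenpe 2.35-fold. Of the replication genes, thymidine kinase Tk1 was 2.56-fold lower, the ribonucleotide reductase subunit Rrm2 2.33-fold and the helicase subunit Mcm7 2.03-fold. The mitosis median ran from -1.19 to -0.83 over the pairs, against -0.45 to -0.30 without IL-4, where all 43 genes also fell. The interaction was called below 0 for 42 of the 43. Of 20 tested G1 cyclins, CDK inhibitors and related genes, 7 rose and 9 fell, beside 32.8% and 34.9% of all genes tested, with a median of -0.05. CDK inhibitor genes were called in both directions. Cyclin D1 (Ccnd1) was 2.06-fold lower and Myc 1.49-fold lower, while Gadd45a, a growth arrest gene, rose 3.28-fold and the antiproliferative Btg2 was 3.02-fold lower.

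The genes that fold and transport secreted proteins rose broadly and by little, beside 32.8% of all genes tested called higher and 34.9% lower. Of 54 tested targets of IRE1-XBP1 and ATF6, the branches of the unfolded protein response that enlarge the endoplasmic reticulum, 44 rose and 2 fell, with a median of 0.34. IL-6 without IL-4 raised 45 of these 54 and lowered 1 (median 0.23), beside 20.2% and 25.8% of all genes tested. With IL-4 present, the disulfide isomerases Pdia4 and Pdia5 rose 4.11-fold and 2.32-fold and the co-chaperone Dnajc3 1.72-fold. Hspa5 (BiP), the main chaperone there, lay at 13.44, 13.51, 13.51, 13.52 and 13.46 with IL-4 and at 13.81, 13.86, 13.85, 13.83 and 13.83 with both. The groups lay apart by little, 1.27-fold (SE 0.030 on the log2 scale, adjusted p = 1.03e-05), and IL-6 without IL-4 raised it by 0.37 (interaction -0.02, SE 0.038, adjusted p = 0.66). Xbp1 was not called on its representing probe set (difference 0.10, SE 0.040, adjusted p = 0.058, groups overlapping), and its other probe sets differed by 0.15 to 0.25. Without replicate 1 it was called (difference 0.13, adjusted p = 0.0137), and over all alternatives its adjusted p ran from 0.00325 to 0.184. Ern1, which encodes IRE1, lay under the filter and was not tested, and the splicing of Xbp1 was not measured here.

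Of 31 tested genes of the PERK-ATF4 branch and serine synthesis, 23 rose and 5 fell, with a median of 0.37. Nupr1 rose 4.23-fold, the transcription factor Atf5 3.74-fold and Gpt2 1.87-fold, while Psat1, an enzyme of serine synthesis, was 1.82-fold lower. In the transport machinery between endoplasmic reticulum and Golgi (COPII and COPI coats and their partners), 43 of 55 rose and 3 fell, with a median of 0.25. The coat subunits Sec24d and Sec23b rose 1.65-fold and 1.53-fold and the cargo adaptor Mcfd2 1.62-fold. The pair medians of this list, 0.23 to 0.29, lay above those without IL-4, 0.05 to 0.12.

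The bright cathepsins moved little. Ctsl lay at 14.07, 14.14, 14.20, 14.13 and 14.20 with IL-4 and at 14.68, 14.81, 14.74, 14.77 and 14.73 with both, and rose 1.51-fold (SE 0.034 on the log2 scale, adjusted p = 7.74e-07). Ctsb rose 1.15-fold (adjusted p = 0.000364) on its brightest probe set, and its 3 other probe sets rose by 0.26 to 0.49. Ctss and Ctsz were not called, with differences of -0.04 (SE 0.032, adjusted p = 0.269) and -0.02 (SE 0.033, adjusted p = 0.657). All 4 lie near the top of the scale. Of 11 tested cathepsins, 5 rose and 3 fell, beside 32.8% and 34.9% of all genes tested. Their share called, 72.7%, and that of the cathepsin inhibitors, 71.4%, lay near the 67.7% of all genes. No cathepsin differed by 1 or more on the log2 scale. The largest difference was in Ctse, which fell by 0.94 on the log2 scale (adjusted p = 2.05e-05) to under the filter level. Ctsc rose 1.39-fold and Ctsk 1.26-fold, and Ctsh was 1.23-fold lower. Of 7 tested cathepsin inhibitors, 3 rose and 2 fell: Cst7 (cystatin F) rose 3.15-fold, while Serpinb6b was 2.64-fold and Cst3 (cystatin C) 1.14-fold lower. Of 39 other lysosomal genes, 21 rose and 9 fell; legumain (Lgmn), the protease that processes cathepsins, rose 2.56-fold, and the acid lipase Lipa was 1.81-fold lower.

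**Figure D4:**
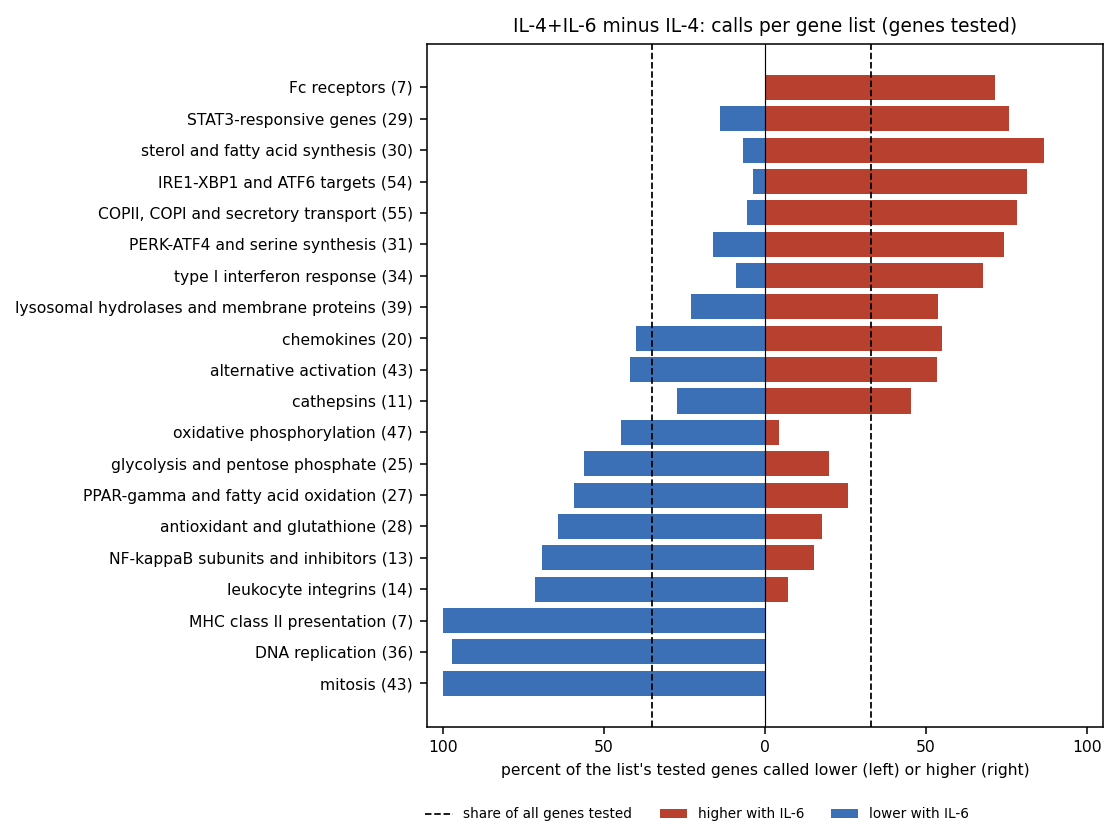
Percent of each list's tested genes (number in brackets) called higher, to the right, or lower, to the left, with IL-6 added to IL-4. Dashed lines mark the shares over all genes tested, 32.8% higher and 34.9% lower. Mitosis, DNA replication and MHC class II genes lie almost wholly to the left, and folding, transport and sterol genes mostly to the right.

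Genes of inflammatory signalling changed in both directions, beside 32.8% of all genes tested called higher and 34.9% lower. Of 13 tested genes of the NF-kappaB subunits and inhibitors, 2 rose and 9 fell, among them Nfkbia (1.41-fold) and Ikbkg (1.62-fold). Of 19 genes of classical activation, 6 rose and 9 fell: Irf5, a factor of that state, was 1.98-fold lower, Tlr2 fell by 1.76 on the log2 scale to under the filter level, and Cd40 rose 2.27-fold. Of 34 genes of the type I interferon response, 23 rose and 3 fell, by a median of 0.24, led by Zbp1 (2.43-fold) and Oas2 (2.41-fold). IL-6 without IL-4 raised 26 of these 34 and lowered 2 (median 0.26), beside 20.2% and 25.8% of all genes tested. Leukocyte integrins and adhesion partners fell in 10 of 14 tested and rose in 1, with Itgb2, the beta chain common to the leukocyte integrins, 1.67-fold lower and Itgam 1.43-fold. Without IL-4 Itgam rose instead, by 0.73 (interaction -1.25, adjusted p = 7.48e-12). Of 15 tested costimulatory and coinhibitory ligands, 8 rose and 6 fell. Cd274 (PD-L1) rose 1.96-fold beside Pdcd1lg2, while Havcr2, Cd276 and Vsir of the same list were lower. Without IL-4, Cd274 and Pdcd1lg2 differed by 0.04 and -0.04, neither called. Cd274 lay well above the filter level there (9.30 and 9.35), and Pdcd1lg2 under it (5.66 and 5.62).

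**Figure D5:**
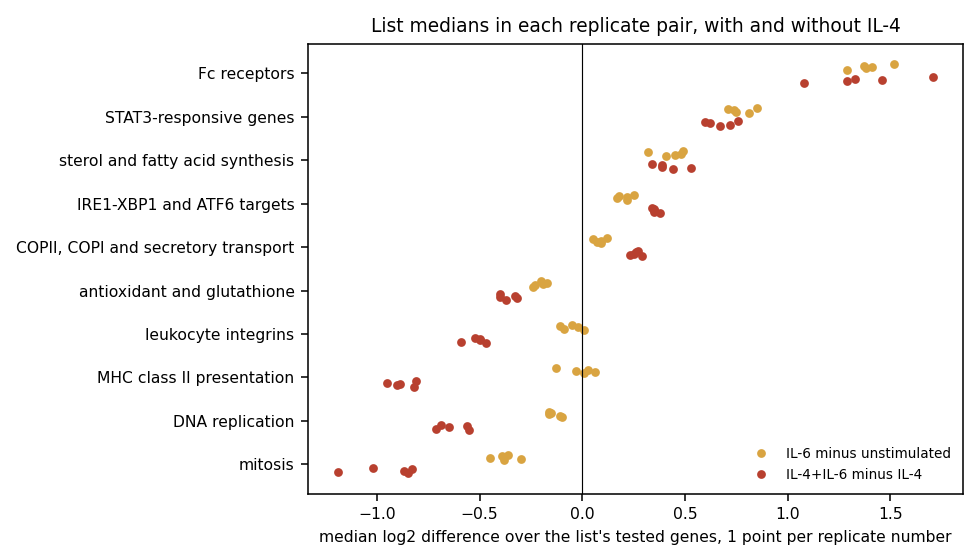
Median log2 difference over the tested genes of 10 lists in each of the 5 replicate pairs, for IL-4 plus IL-6 minus IL-4 (red) and IL-6 minus unstimulated (yellow). For mitosis, DNA replication, MHC class II and integrins the red points lie left of the yellow ones in all pairs, as they do by less for the STAT3-responsive list; for the sterol list the colours overlap.

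Among metabolic genes, those of sterol synthesis rose broadly, beside 32.8% of all genes tested called higher and 34.9% lower. Of 30 tested genes of sterol and fatty acid synthesis, 26 rose and 2 fell, by a median of 0.44. Mvd and Fdps, enzymes of the mevalonate pathway, rose 2.27-fold and 1.90-fold and fatty acid synthase Fasn 1.89-fold, and the pair medians were 0.34 to 0.53, higher than without IL-4 (0.32 to 0.49) in 3 of 5 pairs. Of 27 genes of PPAR-gamma and fatty acid oxidation, 7 rose and 16 fell, with Cpt1a, which admits fatty acids to mitochondria, 1.75-fold lower and the fatty acid binding protein Fabp4 1.74-fold higher. Of 25 genes of glycolysis and the pentose phosphate path, 5 rose and 14 fell, and of 47 of oxidative phosphorylation, 2 rose and 21 fell, with medians of the latter near 0 (-0.06). Antioxidant genes fell in 18 of 28 and rose in 5: Sod1 was 2.22-fold and Txnrd1 2.01-fold lower, whereas the metallothionein Mt2 rose 7.01-fold. Of 21 genes of iron and haem handling, 8 rose and 8 fell, which is near the shares over all genes (32.8% and 34.9%); the transporter Slc11a1 (Nramp1) was 2.59-fold lower, and ferroportin, Slc40a1, fell by 1.44 on the log2 scale to under the filter level.

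Genes of matrix and repair also went both ways, beside 32.8% of all genes tested called higher and 34.9% lower. Of 15 tested metalloproteases and inhibitors, 8 rose and 6 fell, with Mmp14 3.28-fold higher beside Timp1. Of 14 growth factors and repair matrix proteins, 6 rose and 6 fell: Tgfbi and fibronectin Fn1 rose 3.45-fold and 2.70-fold, and Pdgfb was 3.35-fold lower while Pdgfc rose. Without IL-4, IL-6 raised Tgfbi, Fn1 and Mmp14 by 1.60, 1.36 and 1.88, and changed Pdgfb by -0.24 (interaction -1.51, adjusted p = 2.86e-12). Vegfa, the vascular growth factor, was 2.43-fold lower with IL-4 present and changed by -1.16 without it (interaction -0.12, adjusted p = 0.346). The eicosanoid genes fell in 11 of 16 tested and rose in 4, with the prostaglandin receptor Ptger4 3.24-fold higher and Alox5ap, needed for leukotriene synthesis, 1.67-fold lower.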

How the data were processed

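RNA (75 ng of total RNA per array) was hybridised to Affymetrix 3′ arrays with 22690 probe sets. The authors deposited log2 intensities from RMA (background correction, quantile normalization and 1 summarised value per probe set), per the submitters' processing notes. The notes also name GCOS 1.4, without a role. Their annotation, and whether RMA ran on all 29 arrays at once, are not given in the sources used here, and the base of the logarithm follows from the range of the values, 2.45 to 15.13. Values were used as deposited; array medians lay between 6.95 and 7.02 and no 2 of the 10 arrays were identical.

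The supplied annotation names 1 gene for 20393 probe sets, several for 691 (not used) and none for 1606. A gene with several probe sets was represented by the brightest one, by its mean over all 29 arrays. Of 12393 genes, 7153 had at least 3 of 29 arrays above the median of all values (6.99) and were tested. The fit was limma 3.58.1 in R 4.3.3 on the 10 arrays, with the replicate number as a block, moderated two-sided tests and Benjamini-Hochberg adjustment over the 7153 genes. The pairing comes from the titles and was checked on the data: deviations from the group mean correlated at 0.495 to 0.696 between arrays of the same number and at -0.539 to 0.424 between others, and at 0.527 to 0.694 between IL-6 and unstimulated arrays of the same number. The interaction was fitted on 20 arrays with the same block. The fit was tested on simulated data.

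The genes, the 56 gene lists and the tests were chosen with earlier results of these data known. Lists are described by counts and medians, with no set test. Named are the 16 largest increases and decreases among called genes without overlap, up to 6 called genes with the largest difference per list, and Socs3, Arg1, Stat3, Stat6, Il4ra, Il6ra, Il6st, Ern1, Xbp1, Hspa5, Ctsb, Ctsl, Ctss and Ctsz throughout. Interactions of other list genes were printed after their values were seen. Alternatives were other blocks, arrays, scalings, filters, probe set rules, variance models, thresholds and leaving out each replicate number. Promoters of GRCm38.p6 were searched from 250 bases before to 50 after the start.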

Additional observations from a re-analysis of the deposited data

Results flagged for a closer look

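In groups of 5 arrays, 1 array stood apart from the other 4 by over 0.71 of the group's range (Dixon's 95% critical value) in 23 of the 314 gene and group combinations of the genes named, where chance flags about 1 in 20 groups. On the IL-4 plus IL-6 array of replicate 2, Slamf9 (8.54, the others 8.97 to 9), Ccl22 (6.87), Itgax (11.60), Lipa (11.97) and the serine synthesis gene Psat1 (9.15) were low. The replication genes Tk1 (7.43, the others 7.84 to 7.97), Rrm2 (9.18) and Mcm7 (10.27) were low on the same array. On that of replicate 1, Il4ra (11.43), Cav1 (6.76), Il1r1 (8.96), Sec23b (11.17), Cd40 (9.05) and Pparg (9.89) were high, and Xbp1 was low (12.51, the others 12.69 to 12.74). Ctsc was low on the IL-4 plus IL-6 array of replicate 5 (12.31), and Pf4 on that of replicate 4 (11.54). Among IL-4 arrays, Timp1 was high on replicate 1 (8.22), Cd209e was high on replicate 5 (4.62), where Mrc1 (12.79) and Tlr2 (7.88) were low, and on replicate 4 Stat6 was low (10.56) and Ctss high (14.64).

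The difference that IL-6 made differed with and without IL-4 by the interaction test (limma, adjusted p under 0.05) for most genes named as largest changes. Among the increases, it was above 0 for Gja1 (2.72), Ccl8 (4.91), Ccl12 (3.29), Cd209e (5.99), Ednrb (1.85), Pdgfc (3.01), Ch25h (3.66), Chil4 (4.57), Pgap6 (2.39), Cd209a (4.10), Cystm1 (3.40), Fgl2 (1.4), Ccl24 (3.97), Il4ra (0.91) and Cd163 (3.90). Socs3 was the exception among the 16. Among the decreases, all 16 lay below 0: Ramp1 (-2.02), Axl (-1.84), Irf4 (-1.83), Sema4d (-2.08), Ccl17 (-2.60), Ocstamp (-1.83), Siglecf (-1.4), Arap3 (-1.56), Slamf9 (-3.05), Clec4b1 (-2.25), Lsp1 (-1.26), Dna2 (-1.15), Ptpn22 (-1.83), Cav1 (-0.47), Chn2 (-1.54) and Enc1 (-0.70). These genes were picked by the difference with IL-4, which is part of the interaction, so the counts describe them only. Where both means without IL-4 lay under the filter level, as for Cd209e, Ch25h, Chil4, Cd209a, Ccl24, Cd163, Irf4, Ccl17, Ocstamp, Chn2 and Arg1, the interaction rests on values under that level. The interaction was also called for Arg1 (2.21), Il6ra (-0.55), Il6st (0.86), Ctsb (0.09), Ctsl (0.31), Slc7a2 (1.59), Odc1 (0.83), Ccr2 (-2.38), Itgam (-1.25), Ciita (-2.07) and Pdgfb (-1.51).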

How the results depend on the processing

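The count of 4842 called genes stayed within 1.5 times under the other blocks, arrays, scalings, variance models, the mean of probe sets, no filter and the threshold of 0.01, and between 4456 and 4705 when each replicate number was left out. It moved to 3134 (1506 higher, 1628 lower) with the filter at the 75th percentile, where fewer genes were tested, to 7401 probe sets (3544 and 3857) when every probe set was tested, and to 383 (186 and 197) when a difference of at least 1 was required. Without the replicate block 4413 genes were called on the 10 arrays, and 4330 on all 29. The interaction then gave 2939 in place of 3499, and IL-6 without IL-4 gave 2705 in place of 3289. Among genes taken by the naming rule, 6 lost their call without the block on 10 arrays (Ltf, Ms4a1, Iglv1, Ighm, Jchain and Cd28), and the block changed no other call of a gene described above. Ighm was reversed on a second probe set (-0.06). Xbp1 was called under 8 of the gene-level and replicate alternatives. With the mean of probe sets 55 called genes changed sign; the cause was not tested. Background signal limits genes near the filter level, and no array has a detection call. Over all gene-level alternatives the list median ran from -1.03 to -0.87 for mitosis, from -0.97 to -0.79 for MHC class II and from 0.34 to 0.36 for the IRE1-XBP1 and ATF6 targets, but from -0.02 to 0.62 for chemokines.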
